A study of Mus musculus with 16 samples.

Results

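The S100 proteins are small calcium-binding proteins, and 10 of their genes were followed here in lung tumour cells with and without a guide against *Eif4a2*. The genes were *S100a1*, *S100a4*, *S100a6*, *S100a8*, *S100a9*, *S100a10*, *S100a11*, *S100a13*, *S100a14* and *S100a16*. They are 10 of 20622 genes in the total RNA tables, all 10 of them had a transcript among the 15235 counted for ribosome footprints, and they were chosen by symbol as a family. *S100a9* was the starting point of that choice because its footprints were among the largest falls between the cell lines, so differences of these 10 genes between the cell lines are given below as a description, with no p-value, while other genes are given with their tests. The cells, termed KM, were grown from the lung tumours of 1 male mouse with engineered alleles that included Rosa26 LSL-MYC/LSL-MYC, switched on by an adenoviral Cre under the surfactant protein C promoter, which acts in alveolar type II cells. KM_4A2cr cells carried, from a lentivirus, CRISPR components cutting the coding part of *Eif4a2*. They were a pool of 4 clones that had lost the protein, an RNA helicase that the authors describe as a translation repressor. KM_NTC cells carried a non-targeting guide. Both lines shared all these alleles and puromycin selection, and both were untreated and close to confluent. The paper does not say whether KM_NTC cells were also cloned, so any effect of cloning cannot be told apart from that of the guide. The question of the experiment was how loss of eIF4A2 changes which mRNAs are translated.

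Ribosome-protected fragments (RPFs, the stretches of mRNA that a ribosome shields from RNase I) and cytoplasmic total RNA came from the same lysates. There were 4 replicates of each line, which gives 16 libraries. RPF libraries held 4512403 to 9621848 counts and total RNA libraries 5350919 to 9312622, and replicate 4 was the shallowest of its line in both. RPFs of *Eif4a2* (ENSMUSG00000022884.17) were lower in KM_4A2cr in 4 of 4 pairs of libraries with the same replicate number, with a fitted log2 ratio of -0.49 (SE, the standard error, 0.15, and edgeR adjusted p = 0.0941), and in total RNA that ratio was -0.18 (SE 0.13, edgeR adjusted p = 0.504). The RPF value was not called without replicate 1, 2 or 3 (adjusted p = 0.300, 0.377 and 0.351 by edgeR). These counts do not read the edit itself. Replicate 4 stood apart in this gene too, with 389 CPM (counts scaled to library size) in the KM_NTC RPF library against 97.7 to 122 in the others. All 7 epithelial markers were tested, and 5 were above 0 in RPFs (median log2 fold change 0.13) and 4 in total RNA, where 0 were called by edgeR. *Epcam* and *Cdh1* were called higher in KM_4A2cr RPFs (log2 fold changes 0.51 and 0.44, adjusted p = 0.0770 and 0.0845 by edgeR), beside 6.6% of all genes. Of 8 alveolar type II markers, 1 was tested in RPFs and 2 in total RNA. *Sftpc* and *Sftpb*, which code for surfactant proteins, had 0 counts in total RNA and were not listed in RPFs. The authors name surfactant protein C among the markers by which they checked the identity of the cells. *Sftpa1*, *Sftpd*, *Napsa* and *Slc34a2* were too scarce to test in either kind. *Abca3*, a lipid transporter and the only marker called, rose in RPFs and total RNA (0.54 and 0.62, adjusted p = 0.0501 and 0.0240 by edgeR). None of these marker calls held without replicate 1, 2 or 3.

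Most S100 proteins form dimers that change shape when calcium fills a pair of EF-hand loops, and they then bind partner proteins. Inside cells S100A10 and S100A11 bind annexins at membranes, S100A4 binds non-muscle myosin, and S100A6 binds the adaptor CacyBP. Outside cells S100A8 and S100A9, which pair as calprotectin, act as alarm signals through TLR4 and RAGE and withhold metals from microbes, and they are best known from neutrophils, although stressed epithelium makes them too. Most of the genes lie in one cluster, within the region that also holds genes of epidermal differentiation.

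On mouse chromosome 3 the RefSeq order was *S100a1*, *S100a13*, *S100a14*, *S100a16*, *S100a3*, *S100a2*, *S100a4*, *S100a5*, *S100a6*, *S100a7a*, *S100a8* and *S100a9*, with *S100a11* and *S100a10* after them. The promoters of the genes that the values below turn on are shown here, as windows from 250 bases before to 50 bases after the annotated start in RefSeq (GRCm38.p6, a build other than that of the counts). The table held 9 windows for 8 of the 10 genes, and *S100a10* and *S100a14* had none. *S100a9* (chr3:90695672-90695971, minus strand) and its partner *S100a8* (chr3:90668821-90669120, plus strand) are followed by *S100a4* (chr3:90603520-90603819, plus strand), which was low in replicate 4 of both lines, and by the 2 starts of *S100a16* (chr3:90537004-90537303 and chr3:90540896-90541195, plus strand). Capitals mark matches, on either strand, to the 5 motifs spelled out after the windows, and no matches overlapped.
S100a9: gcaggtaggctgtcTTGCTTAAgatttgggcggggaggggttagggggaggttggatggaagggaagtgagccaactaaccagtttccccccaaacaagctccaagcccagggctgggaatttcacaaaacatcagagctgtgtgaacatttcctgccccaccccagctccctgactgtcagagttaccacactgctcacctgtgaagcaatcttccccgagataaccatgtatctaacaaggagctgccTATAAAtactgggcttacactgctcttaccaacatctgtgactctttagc
S100a8: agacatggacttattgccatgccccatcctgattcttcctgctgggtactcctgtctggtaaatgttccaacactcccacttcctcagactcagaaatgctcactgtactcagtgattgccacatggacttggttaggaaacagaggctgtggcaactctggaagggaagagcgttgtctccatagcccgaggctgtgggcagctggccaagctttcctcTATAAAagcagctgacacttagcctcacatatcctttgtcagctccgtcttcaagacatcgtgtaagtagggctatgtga
S100a4: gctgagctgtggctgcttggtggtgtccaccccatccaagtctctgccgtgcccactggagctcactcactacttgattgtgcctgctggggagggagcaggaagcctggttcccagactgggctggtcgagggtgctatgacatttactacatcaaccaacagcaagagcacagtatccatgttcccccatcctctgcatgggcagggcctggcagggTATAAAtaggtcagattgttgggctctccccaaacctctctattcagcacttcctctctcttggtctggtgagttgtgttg
S100a16, first start: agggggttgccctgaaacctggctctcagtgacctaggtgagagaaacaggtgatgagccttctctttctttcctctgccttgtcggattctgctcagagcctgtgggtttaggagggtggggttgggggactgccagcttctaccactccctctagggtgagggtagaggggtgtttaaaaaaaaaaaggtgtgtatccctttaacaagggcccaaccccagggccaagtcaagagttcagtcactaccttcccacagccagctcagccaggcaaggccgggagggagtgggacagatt
S100a16, second start: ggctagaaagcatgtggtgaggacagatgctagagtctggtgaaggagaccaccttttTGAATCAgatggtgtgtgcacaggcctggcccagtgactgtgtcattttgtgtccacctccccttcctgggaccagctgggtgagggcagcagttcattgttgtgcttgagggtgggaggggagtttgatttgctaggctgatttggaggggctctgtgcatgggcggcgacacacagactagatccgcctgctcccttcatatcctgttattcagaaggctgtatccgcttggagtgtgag

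The TATA box (searched as TATAAA) stood 30 bases before the start of *S100a8* and 31 bases before that of *S100a4*, and at the annotated start base itself in *S100a9*, and 13.6% of all 32851 windows hold one. The *S100a9* window also held the letters TTGCNNAA that C/EBP factors bind, 236 bases before the start, found in 10.8% of all windows. The downstream *S100a16* window held the AP-1 letters TGANTCA (7.81% of all windows), as did that of *S100a11* at 2 places. The E-box CACGTG that MYC binds was in the windows of *S100a6* and *S100a11* (7.15% of all windows). The CRE letters TGACGTCA (1.79%) were in none of the 9. *S100a1* and *S100a13* are read away from each other, and their windows share 204 bases. A match of letters is not a bound site.

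Expression of the family spanned more than 3 orders of magnitude on the length-scaled TPM scale of total RNA. *S100a6*, a growth-associated calcium sensor, led with 7831 ± 1863 TPM in KM_NTC (SD, n = 4), which ranked it 10 among 20622 genes. *S100a14*, an epithelial family member, and *S100a10*, the annexin A2 light chain, followed at 1263 ± 533 and 1263 ± 464 TPM, and *S100a11* had 514 ± 160. The next group held *S100a16*, a widely made family member, at 75.9 ± 10.7 TPM, *S100a1*, known from muscle, at 57.3 ± 7.4, *S100a13*, which helps export FGF1, at 56.2 ± 8.1, and *S100a4*, also called metastasin, at 37.2 ± 24.8. *S100a9* had 18.4 ± 12.5 TPM and *S100a8* 2.67 ± 1.22. In KM_NTC the library ranges of neighbours in this order overlapped except between *S100a6* and *S100a14* and between *S100a11* and *S100a16*. In KM_4A2cr *S100a16* had 142 ± 58 TPM (rank 987 of all genes, against 1953 in KM_NTC), its range no longer reached that of the gene below it, and the other members kept their places except that *S100a13* and *S100a1* exchanged theirs. The 10 genes together took 0.455% ± 0.050 of RPF counts in KM_NTC and 0.430% ± 0.049 in KM_4A2cr, of which *S100a6* alone gave 53.5% and 48.5%.

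**Figure D1:**
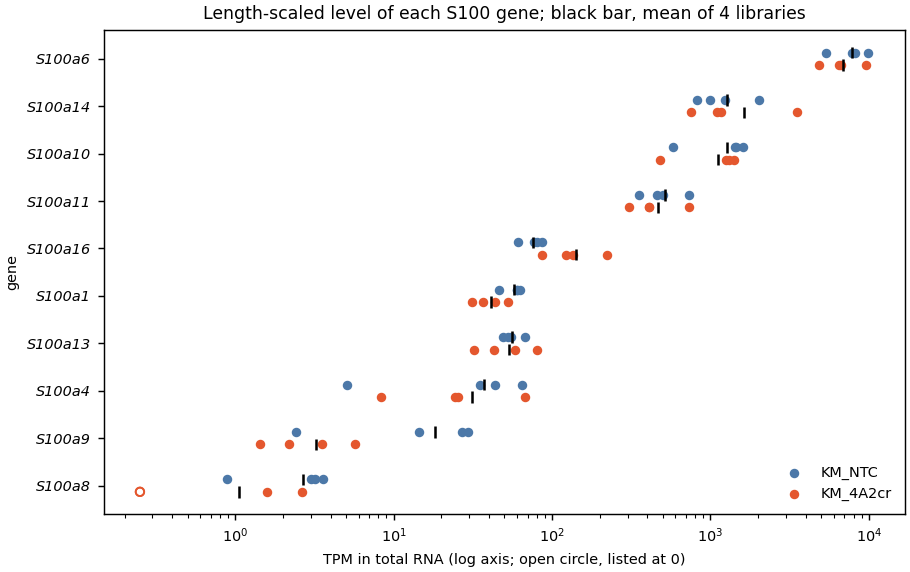
Total RNA of the 10 S100 genes in TPM on a log axis, with 1 point per library (4 KM_NTC, 4 KM_4A2cr) and a black bar at each mean; open circles mark libraries at 0, drawn at the left edge. *S100a6* lies highest, with a KM_NTC mean of 7831 TPM, and *S100a8* lowest, with 2.67.

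*S100a9* (ENSMUSG00000056071.13), the larger calprotectin subunit, was low in KM_NTC and lower still in KM_4A2cr. Its RPF counts in KM_NTC replicates 1 to 4 were 52, 105, 65 and 8, or 4.71, 10.4, 8.90 and 1.68 CPM. In KM_4A2cr they were 20, 12, 7 and 0, or 2.42, 1.48, 0.982 and 0 CPM. In the last library the transcript was not listed and was entered as 0, which allows up to 0.808 CPM at this depth. The KM_4A2cr library was the lower of every pair, but the groups overlapped because KM_NTC replicate 4 was below KM_4A2cr replicate 1. The mean of 1.22 ± 1.01 CPM in KM_4A2cr was 0.190 of the 6.43 ± 3.98 CPM in KM_NTC (SD, n = 4), and the fitted log2 fold change was -2.29 (SE 0.40), the second lowest among the 383 genes called lower. Leaving out each replicate in turn gave values from -3.04 to -1.95, with -2.22 without replicate 4. In bulk libraries like these, fewer cells that make a transcript and less of it per cell cannot be told apart.

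The RNA of *S100a9* moved in the same direction as its footprints. Total RNA counts were 20, 54, 39 and 3 in KM_NTC and 7, 3, 4 and 2 in KM_4A2cr, lower in 4 of 4 pairs, and the means were 3.38 ± 2.16 and 0.686 ± 0.346 CPM, a ratio of 0.203. With so few counts the gene did not pass the filter for a test of total RNA. Without that filter the fitted log2 fold change was -2.36 (SE 0.40) in total RNA and 0.08 (SE 0.45) in translational efficiency, the footprints set against the RNA. *S100a8* (ENSMUSG00000056054.10), the calprotectin partner, had 5 RPF counts over the 4 KM_NTC libraries and 1 over the KM_4A2cr libraries, and 15 and 5 in total RNA. Its RPF counts were 3, 2, 0 and 0 and then 0, 1, 0 and 0, too few for a fold, and each 0 was a library that did not list the transcript.

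Calprotectin is a neutrophil product, so neutrophil and myeloid markers were set beside these values. Of 14 such genes, *Mpo*, *Elane*, *Camp*, *Ngp*, *Retnlg*, *Mmp8* and *Itgam* were listed in none of the 8 RPF libraries. Of these, *Itgam* had 0 to 9 counts in total RNA, *Mpo* 0 to 1 and the others 0. *Ptprc*, the pan-leukocyte antigen CD45, had 0 to 20 RPF counts. The summed RPF level of the list was 113 to 916 CPM in KM_NTC and 128 to 730 in KM_4A2cr, most of it from *Cd68*, a lysosomal protein with 685 to 3703 RPF counts, and *Itgb2*, an integrin chain with 127 to 651. The chemokine receptor gene *Cxcr2* had 473 to 1322 counts in total RNA and 0 to 10 in RPFs. No gene of the list was called between the cell lines (2 tested in RPFs and 3 in total RNA, by edgeR). The highest summed level in each line was that of replicate 4, where *S100a9* was lowest in RPFs. Which cells made *S100a9* was not tested.

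*S100a16* (ENSMUSG00000074457.11) went the other way. RPF counts were 448, 620, 412 and 367 in KM_NTC and 662, 853, 866 and 1022 in KM_4A2cr. On the CPM scale these were 40.6, 61.5, 56.4 and 77.0 against 79.9, 105, 122 and 275, with no overlap between the groups. The log2 fold change was 1.17 (SE 0.18), with differences of 0.98, 0.77, 1.10 and 1.83 in pairs 1 to 4. Total RNA rose alongside, from 23.7, 31.1, 34.5 and 40.0 CPM to 38.3, 46.1, 63.2 and 151 CPM, and its log2 fold change was 1.01 (SE 0.21), where only KM_NTC replicate 4 exceeded the lowest KM_4A2cr library. The gene has 6 annotated isoforms, and the one counted for RPFs held 32.2% ± 3.4 of its total RNA counts in KM_NTC and 29.3% ± 0.5 in KM_4A2cr.

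**Figure D2:**
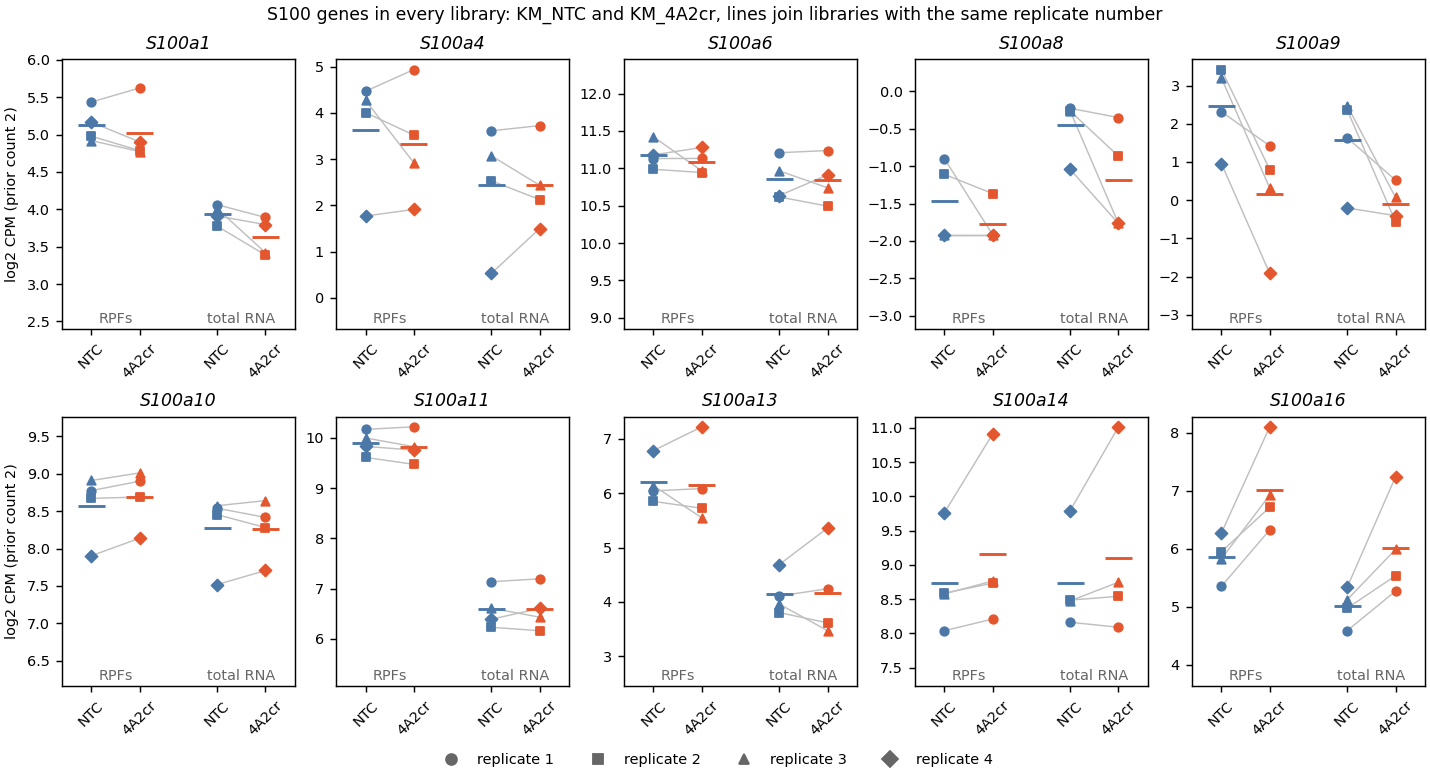
Levels of the 10 S100 genes in every library as log2 CPM with a prior count of 2, with RPFs on the left of each panel and total RNA on the right; marker shape gives the replicate, grey lines join libraries with the same number and bars are group means. All *S100a9* lines go down and all *S100a16* lines go up, while *S100a14* replicate 4 lies far above the others.

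*S100a14* (ENSMUSG00000042306.12), the neighbour of *S100a16* in the cluster, had RPF levels of 263, 384, 382 and 867 CPM in KM_NTC and 296, 425, 435 and 1928 in KM_4A2cr. The differences were 0.17, 0.15, 0.19 and 1.15 in pairs 1 to 4, so most of the fitted log2 fold change of 0.41 (SE 0.18) came from replicate 4. Without replicate 4 it was again 0.17. In total RNA the KM_4A2cr library was the higher in 3 of 4 pairs, and the log2 fold change was 0.37 (SE 0.21).

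Of the 4 members that bind annexins, myosin or CacyBP, *S100a6*, *S100a10* and *S100a11* had RPF log2 fold changes from -0.10 to 0.12, and *S100a4* varied from pair to pair. *S100a6* (ENSMUSG00000001025.9) had 2333 ± 298 CPM of RPFs in KM_NTC and 2174 ± 240 in KM_4A2cr, with a log2 fold change of -0.10 (SE 0.14). *S100a10* (ENSMUSG00000041959.15) had 391 ± 106 and 422 ± 103 CPM and a log2 fold change of 0.12 (SE 0.12), positive in 4 of 4 pairs in RPFs and in 2 of 4 in total RNA. *S100a11* (ENSMUSG00000027907.5) had 967 ± 158 and 919 ± 201 CPM (log2 fold change -0.08, SE 0.12). Its total RNA was 99.0 ± 29.1 and 100.1 ± 32.5 CPM, so its share of counts was larger in RPFs than in total RNA in both lines. The kinds of library were prepared, counted and scaled separately, so this is not a measure of its translation. *S100a4* (ENSMUSG00000001020.9) had 21.8, 15.8, 19.0 and 3.15 CPM in KM_NTC and 30.3, 11.2, 7.30 and 3.50 in KM_4A2cr, and its log2 fold change of -0.33 (SE 0.29) hid differences from 0.47 to -1.35.

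In the head-to-head pair, *S100a1* (ENSMUSG00000044080.10) had total RNA levels of 16.4, 13.4, 15.8 and 14.8 CPM in KM_NTC and 14.6, 10.2, 10.4 and 13.6 in KM_4A2cr, lower in 4 of 4 pairs, with a log2 fold change of -0.32 (SE 0.15). In RPFs it was lower in 3 of 4 pairs (-0.10, SE 0.13). *S100a13* (ENSMUSG00000042312.11) had 75.8 ± 23.4 and 78.9 ± 47.5 CPM of RPFs and log2 fold changes of -0.06 (SE 0.17) in RPFs and 0.06 (SE 0.19) in total RNA, with 2 pairs up and 2 down in each.

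Over the family, 9 members passed the filter in RPFs and 8 in total RNA, *S100a8* in neither. In RPFs 1 of 9 was called higher (*S100a16*) and 1 lower (*S100a9*), where a call is an adjusted p under 0.1 over all genes. The share of all 10291 genes called was 6.6% higher and 3.72% lower. In total RNA 1 of 8 was called higher (*S100a16*) and 0 lower, beside 4.35% and 1.78% of all 10880 genes. In translational efficiency 0 of 8 was called by edgeR, beside 1.87% higher and 1.04% lower of 9989 genes. The log2 differences ran from -0.10 in *S100a13* to 0.24 in *S100a1* (standard errors 0.09 to 0.23). DESeq2 also called 0 of 8, beside 0.861% higher and 0.330% lower, but it gave *S100a1* and *S100a4* no adjusted p. The S100 calls depended on single replicates, as did calls over all genes. Without replicate 3, *S100a16* was called in neither RPFs nor total RNA. In that setting 0.281% of all genes were called higher in RPFs and 0.458% in total RNA. *S100a9* was not called in RPFs without replicate 2 or 3, where 0.282% and 0.0290% of all genes were called lower. Without replicate 4, 2 of 9 members tested, *S100a1* and *S100a9*, were called lower in total RNA, beside 12.0% of all genes. Since the same contrast led to the choice of the genes, these counts only describe them. In translational efficiency *S100a16* had 0.16 (SE 0.11), so its RPFs and RNA rose to a like degree within this error.

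**Figure D3:**
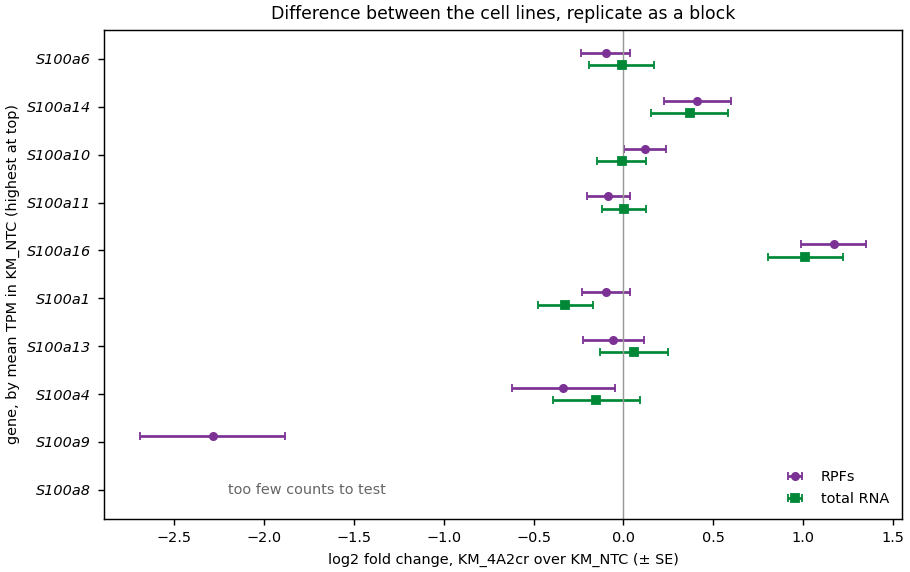
Log2 fold change of each S100 gene, KM_4A2cr over KM_NTC, with its standard error, for RPFs (circles) and total RNA (squares), ordered by TPM in KM_NTC; *S100a8* had too few counts and *S100a9* is shown for RPFs only. *S100a9* sits at -2.29, *S100a16* at 1.17 and 1.01, and the other members between -0.33 and 0.41.

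The 4 replicate numbers gave a contrast that the choice of genes did not use. Whether a gene differed between replicates, with replicate terms shared by the lines, was tested with edgeR's quasi-likelihood F test in the same fit. A gene that varied strongly in a single line could be called too. In RPFs 8 of 9 members were called, beside 65.9% of all genes, and in total RNA 6 of 8, beside 61.1%. The exceptions were *S100a6* in RPFs and total RNA (adjusted p = 0.580 and 0.178 by edgeR) and *S100a1* in total RNA (adjusted p = 0.375 by edgeR). *S100a6*, the most abundant, was thus also among the steadiest, with a 1.35-fold range over KM_NTC RPF libraries, although its total RNA was called with DESeq2 (adjusted p = 0.0480) and by edgeR without replicate 4 (adjusted p = 0.000344).

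*S100a14* had the smallest p of the family in this test (adjusted p = 0.00108 in RPFs and 0.000795 in total RNA by edgeR). Its log2 level in replicate 4 was above the mean of replicates 1 to 3 by 1.36 in KM_NTC and 2.34 in KM_4A2cr. *S100a4* moved the other way, lower in replicate 4 by a log2 difference of -2.48 in KM_NTC and -1.88 in KM_4A2cr RPFs (adjusted p = 0.00527 and, in total RNA, 0.00204 by edgeR). *S100a10* was lower there by -0.88 and -0.73 (adjusted p = 0.00792), whereas *S100a13* was higher by 0.77 and 1.44 (adjusted p = 0.00692) and *S100a16* by 0.56 and 1.45 (adjusted p = 0.00895), all in RPFs by edgeR. *S100a9* was lower by -2.02 and -2.76 (adjusted p = 0.0463 by edgeR). *S100a11* was highest in replicate 1 of both lines, at 1152 and 1193 CPM (adjusted p = 0.0439 by edgeR). *S100a1* was also highest in replicate 1, at 43.0 and 49.0 CPM (adjusted p = 0.0303 by edgeR). *S100a4*, *S100a14* and *S100a16* were called in both kinds of library whichever replicate was left out. Without replicate 4, *S100a9*, *S100a10* and *S100a13* were no longer called in RPFs (adjusted p = 0.358, 0.141 and 0.265) nor *S100a10* in total RNA (0.202). *S100a1* in RPFs was lost without replicate 1 (0.639) and *S100a11* without replicate 1 (0.219 in RPFs, 0.285 in total RNA) or 2 (0.368 in RPFs).

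**Figure D4:**
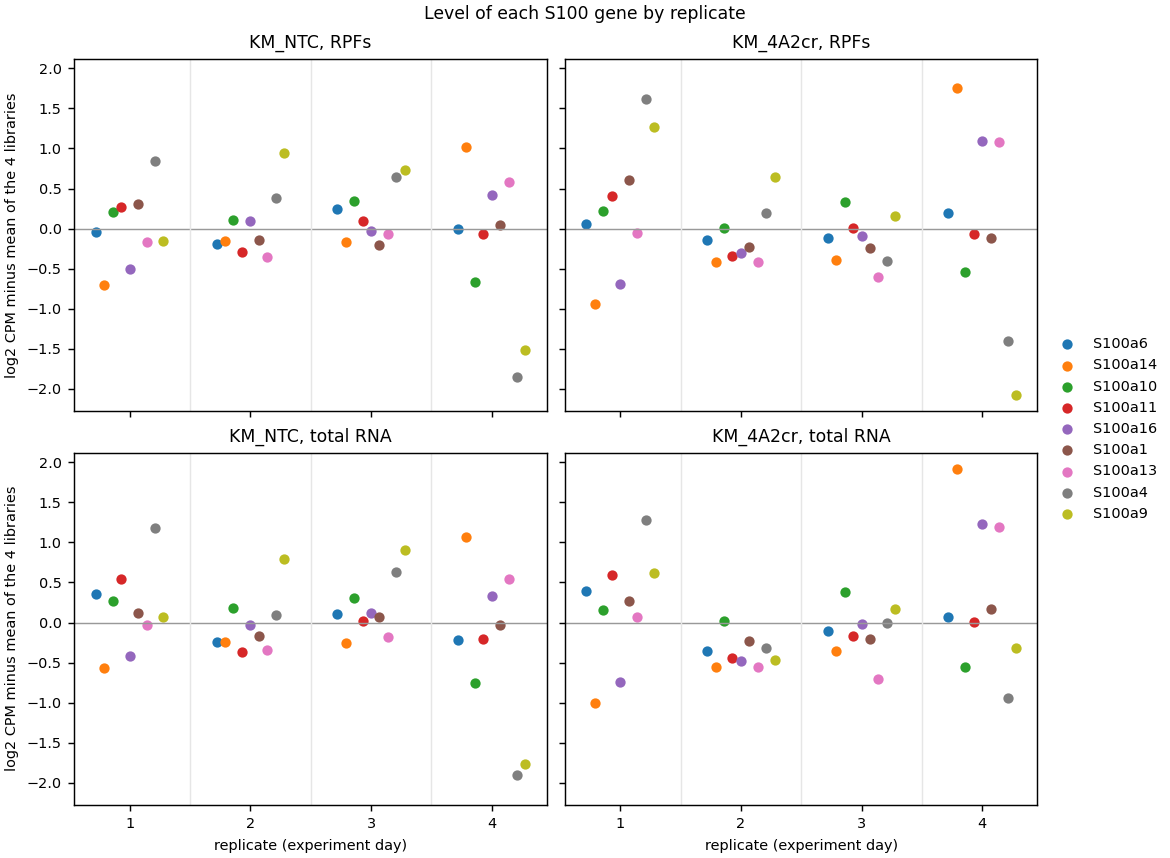
Log2 CPM of 9 S100 genes in each replicate minus the mean of the 4 libraries of that line, for RPFs (top) and total RNA (bottom), KM_NTC left and KM_4A2cr right. In replicate 4 *S100a14*, *S100a13* and *S100a16* lie above 0 and *S100a4*, *S100a9* and *S100a10* below it in all 4 panels.

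Counts of calls in the lists below stand beside 6.6% of all genes called higher and 3.72% lower in RPFs, and 4.35% and 1.78% in total RNA. Among other S100 and fused-type S100 genes, 10 of 14 listed genes were in the tables, 2 were tested in RPFs and 1 in total RNA, and *S100a7a* (ENSMUSG00000063767.5), the mouse psoriasin gene next to *S100a8*, was called lower in both. Its total RNA was 104, 95.1, 86.8 and 155 CPM in KM_NTC and 50.9, 44.0, 29.3 and 162 in KM_4A2cr, so replicates 1 to 3 fell and replicate 4 had 2 like values. The log2 fold change was -0.90 (SE 0.22, edgeR adjusted p = 0.0592) in total RNA and -0.78 (SE 0.22, edgeR adjusted p = 0.0788) in RPFs, and without replicate 1, 2 or 3 it was not called in either (adjusted p from 0.203 to 0.404 by edgeR). *S100a3* had a log2 fold change of -0.36 in RPFs (SE 0.33, edgeR adjusted p = 0.551).

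The list of intracellular partners of S100 proteins held 14 genes, among them the annexins and *Ahnak*, and 0 were called in RPFs. In total RNA 1 of 14 was called lower, *Dlc1*, a tumour suppressor that S100A10 binds (log2 fold change -1.16, SE 0.30, edgeR adjusted p = 0.0713), and it was not called without replicate 1 or 3 (adjusted p = 0.275 and 0.354 by edgeR). The median log2 fold change in RPFs was -0.01, as over all genes. Of 9 cargo and receptor genes 6 were tested, and *Il1a*, a cytokine exported with S100A13 outside the classical route, was called lower. RPFs of *Il1a* were 26.1, 46.4, 40.0 and 36.9 CPM in KM_NTC and 11.4, 23.9, 13.5 and 15.3 in KM_4A2cr, without overlap (log2 fold change -1.24, SE 0.15, edgeR adjusted p = 0.00453). Its total RNA fell by 1.06 on the log2 scale (SE 0.15, edgeR adjusted p = 0.00605), and both calls held whichever replicate was left out. The receptor genes *Ager*, coding for RAGE, and *Cd36* were not listed in the KM_NTC RPF libraries, and *Ager* had 0 to 3 RPF counts over all 8 libraries. The receptor gene *Tlr4* had 28 to 305 counts in RPFs and 28 to 565 in total RNA, and was called in neither. Of 14 inflammatory companions such as *Lcn2*, 8 were tested in RPFs and 0 called by edgeR, with 1 of 8 above 0 and a median log2 fold change of -0.34. In total RNA *Socs3*, an inhibitor of cytokine signalling, was called higher (0.69, SE 0.20, edgeR adjusted p = 0.0959), 1 of 9 tested, though not without replicate 2 or 3 (adjusted p = 0.350 and 0.477 by edgeR). Other EF-hand genes, the calmodulins among them, had 0 of 12 called in RPFs and in total RNA by edgeR, with a median of 0.02 in RPFs.

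Within 1 megabase of the family on chromosome 3, RefSeq lists 87 other protein-coding genes, of which 73 were in the tables and 26 were tested in RPFs. Besides *S100a7a*, *Crct1*, a gene of the epidermal differentiation region, was called lower in RPFs (log2 fold change -1.17, SE 0.31, edgeR adjusted p = 0.0679), and *Jtb*, which codes for a membrane protein, higher (0.58, SE 0.15, edgeR adjusted p = 0.0697). Neither was called without replicate 1, 2 or 3 (adjusted p from 0.207 in *Jtb* to 0.345 in *Crct1* by edgeR). The 26 genes had a median log2 fold change of 0.00, with 13 above 0. In total RNA 1 of 26 was called, *S100a7a*.

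The 4 genes whose RPF level over the 8 libraries was most like that of *S100a9* were *Afp*, coding for alpha-fetoprotein, *BC005624*, *Nfrkb*, a subunit of the INO80 chromatin remodeller, and *Clca3b*, of the calcium-activated chloride channel regulator family. Pearson's r was 0.972, 0.969, 0.965 and 0.961 in RPFs and 0.817, 0.579, 0.568 and 0.771 in total RNA. The libraries share the difference between the lines and the difference of replicate 4, so these values only describe the likeness. *Clca3b* had RPF levels of 15.5, 22.4, 39.0 and 9.86 CPM in KM_NTC and 10.3, 9.23, 9.54 and 2.42 in KM_4A2cr, low in replicate 4 of both lines as *S100a9* was.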

How the data were processed

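RPFs and cytoplasmic total RNA of KM_NTC and KM_4A2cr cells were measured in 4 replicates each, and the labels gave every library its line, kind and replicate number. The RPF files deposited by the authors hold whole counts of each transcript, made after trimming with cutadapt 1.18, alignment with BBmap to GENCODE vM27 coding transcripts, reduced to the most abundant of each gene, and removal of duplicates with UMI-tools 1.0.1. Fragments of 28 to 33 nucleotides counted if they lay in the coding sequence, leaving out 20 codons at its start and 10 at its end. The total RNA files deposited by the authors hold expected counts and TPM per isoform from RSEM 1.3.3 after Bowtie2 2.3.5.1. Genes that share reads with paralogues could be affected by these choices.

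Expected counts and TPM were summed per gene, and the expected counts were rounded. Each RPF library listed 12515 to 13250 transcripts, and one that a library did not list was entered as 0 there. Low genes were removed with filterByExpr (minimum count 10), which keeps a gene that reaches its minimum in at least 4 of the 8 libraries, and libraries were scaled by TMM separately in RPFs and total RNA, which hides any change common to all footprints. The test was edgeR 4.0.16 (R 4.3.3) glmQLFit and glmQLFTest over all genes, on line and replicate, with Benjamini-Hochberg adjusted p under 0.1 as a call. Replicates were tested by the F test of the same fit. Translational efficiency was the interaction of line and kind over 16 libraries. The test was tried on simulated data first. CPM values are TMM-scaled. A standard error is the log2 fold change divided by the root of its F value, except in DESeq2 1.42.0. The floor for 0 counts is 3 counts, which like all intervals of counting covers counting error only.

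That libraries with the same replicate number belong together in both lines was assumed, and their values do not settle it. The replicate block in the fits, and so the calls between the lines, rests on this assumption. Deviations from the line means of same-numbered libraries correlated across genes at 0.763, 0.782, 0.575 and 0.687 in RPFs and at 0.756, 0.736, 0.611 and 0.708 in total RNA. Libraries with different numbers were not correlated for comparison. A replicate that stands apart in both lines gives the remaining libraries a shared deviation from their line means, whatever their numbers. These correlations therefore cannot tell whether the remaining numbers match between the lines.

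The members, the gene lists and the tests were chosen with earlier results of these data known. Named genes were the 10 members, *Eif4a2*, up to 3 called genes of each of 9 lists and 4 near the family by smallest RPF p (total RNA p where none was called in RPFs), and the 4 genes most correlated with *S100a9* in RPFs. *S100a3*, the markers given by counts and the members of each list named as examples were added after their values were seen. As alternatives the block was dropped, DESeq2 or 1 of 3 other scalings was used, or there was no filter, a threshold of 0.05, each replicate left out and, for total RNA, counts of the RPF transcript only. Footprints per codon were not computed here, so levels between genes are compared by TPM alone. One engineered allele that all the cells carried is not reported here.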

Additional observations from a re-analysis of the deposited data

Results flagged for a closer look

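In groups of 4 libraries, 10 values of the S100 genes and *Eif4a2* lay far from the other 3 libraries of their group by Dixon's test, out of 44 groups examined, where chance gives about 1 in 20. Of these, 8 were in replicate 4. The share of all genes flagged by this rule was not computed, and 65.9% of all genes in RPFs and 61.1% in total RNA were called between replicates. RPFs and total RNA came from the same lysates, so the groups are not independent. The count therefore does not set the S100 genes apart from other genes. *S100a14* in replicate 4 had 1928 CPM in KM_4A2cr RPFs (others 296 to 435), 2072 CPM in KM_4A2cr total RNA (others 272 to 429) and 886 CPM in KM_NTC total RNA (others 286 to 358). *S100a10* in KM_NTC total RNA had 183 CPM in replicate 4, against 350 to 381 in the others. *S100a8* in KM_NTC total RNA had 0.192 CPM in replicate 4, which is 1 count, against 0.540 to 0.561. *Eif4a2* in replicate 4 had 346 CPM in KM_4A2cr RPFs (others 51.0 to 88.4), 389 CPM in KM_NTC RPFs (others 97.7 to 122) and 524 CPM in KM_NTC total RNA (others 220 to 254).

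*S100a1* in KM_4A2cr RPFs had 49.0 CPM in replicate 1, against 27.1 to 29.6 in the others. *S100a8* in KM_4A2cr RPFs had 0.123 CPM in replicate 2, a single count beside 3 libraries that did not list it and were entered as 0.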

How the results depend on the processing

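Fold changes were followed for 9 S100 genes, *S100a9* in RPFs only and *S100a8* in neither kind. Under the alternatives 256 values moved by less than the spread (SD) between pairs. Another 2 moved more, *S100a10* (-0.01) and *S100a11* (-0.21) in RPFs with library sizes only, a scaling that shifted the median of all genes by -0.13. Leaving 1 of 4 pairs out cannot move their mean by as much as that spread. For the settings without 1 replicate this measure therefore could hardly have come out otherwise, and the count of 256 is no sign of stability there. In RPFs *S100a9* ran from -3.04 to -1.95 and *S100a16* from 0.95 to 1.31 over all settings, and *S100a16* in total RNA from 0.70 to 1.21. In the fit without the replicate block *S100a9* in RPFs was at -2.29 and *S100a16* in total RNA at 1.21, and no gene of the whole table was called. Neither *S100a9* nor *S100a16* was called in RPFs without replicate 3, nor *S100a16* in total RNA, and *S100a9* was not called without replicate 2. In total RNA *S100a1* was called lower with library sizes only and without replicate 4, and *S100a9* without the filter and without replicate 4. The shares of all genes called lower were 7.98% with library sizes only, 12.0% without replicate 4 and 2.69% without the filter. The calls between lines depended on the replicates as a whole. In RPFs the 1062 calls became 0 without the block (365 genes at an unadjusted p under 0.05), 1619 with library sizes only (29.8% of them higher, against 63.9%; 53.5% with upper quartile scaling), 438 at a threshold of 0.05, and 32 to 3469 with 1 replicate left out (most without replicate 4). In total RNA the 667 calls became 0 (362 genes at an unadjusted p under 0.05), 1130 (23.2% higher, against 70.9%; 60.1% with upper quartile), 1268 without the filter, 321 at 0.05 and 63 to 3260. In translational efficiency the 291 calls became 0 (497 genes at an unadjusted p under 0.05), 119 with DESeq2, 132 with library sizes only (78.8% higher, against 64.3%), 475 without the filter, 76 at 0.05 and 10 to 673. The cause of these changes was not tested, beyond the fewer libraries in the fits that left some out. DESeq2 without the block was not run. Counts of genes called between replicates stayed within 1.5 times in every setting. With about 10 counts in a library at the filter, the scarce *S100a9* and *S100a8* limit what can be said of calprotectin.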
